A study of Mus musculus with 12 samples.

Results

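The PERK-ATF4 integrated stress response is described here as a set of 32 genes, chosen by gene symbol: every probe on the array carrying one of these symbols was taken, in islets of all 12 mice. The symbols matched 61 of 45281 probes. Of the 32 genes, 28 had at least 1 probe detected on 6 or more of the 12 arrays, with 44 probes, out of 12647 genes and 18315 probes detected to that extent.

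PERK, the product of Eif2ak3, is a kinase in the membrane of the endoplasmic reticulum that phosphorylates the translation factor eIF2α when unfolded proteins build up. Most protein synthesis then slows, while translation of ATF4 rises, and ATF4 turns on genes for amino acid supply, tRNA charging, redox balance and, with its partner CHOP (Ddit3), cell death. Beta cells carry a heavy load of proinsulin synthesis and depend on PERK, and its loss causes diabetes in mice and humans. ATF4 itself is controlled mainly in translation, so its mRNA does not report its protein.

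The tested mice were SRI-tg10 animals, males of C57BL/6 background aged 8 weeks that bear 10 copies of a transgene for sorcin (Sri), a calcium-binding protein. A tetracycline-inducible promoter drives sorcin and luciferase, and a rat insulin promoter drives the transactivator, so that induction is directed to beta cells. The controls were littermates, also males aged 8 weeks; the labels do not say which transgenes they carried. All mice of both groups ate high-fat food (60% fat) and drank doxycycline (500 mg/L) for 4 weeks, starting when 4 weeks old. There were 6 mice in each group and 1 array per mouse, with RNA from islets of Langerhans separated from exocrine tissue, although the source name speaks of beta cells. The sample titles begin with A or B; no label explains this letter, and 3 mice of each group carry each.

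Detected probes numbered 16271 to 20094 on an array (35.9% to 44.4%). The brightest Sri probe had a log2 level between 12.72 and 14.96 in SRI-tg10 islets, against 9.60 to 10.09 in control islets, so the Sri level of every array fitted its label. SRI-tg10 replicate 4 lay well below the other transgenic arrays, and control replicate 5 was the array least like the rest, with a mean correlation of 0.934. Ins1, an insulin gene, was near the top of the normalized scale (15.17) in both groups, with means of 14.90 in SRI-tg10 islets and 14.93 in control islets. All 13 measured acinar markers of 15 were detected on all 12 arrays, with summed levels of 18.15 to 18.31 in SRI-tg10 islets and 18.01 to 18.32 in control islets; enzymes such as Cel (15.04 in SRI-tg10 and 14.92 in control islets) lay near the same ceiling, where differences are compressed. In whole islets, fewer cells of a type and less RNA per cell cannot be told apart. Summed lymphocyte markers (6 measured of 8) ranged from 10.16 to 15.25 in SRI-tg10 islets and from 10.04 to 14.78 in control islets. The sums are of linear levels, so the brightest marker weighs most. Igh-6, an antibody gene, was at 14.90 in SRI-tg10 replicate 4, where the sum was 15.25. It was at 13.51 in control replicate 1, where the sum was 13.70 and the T-cell marker Cd3e was at 5.38. All 6 macrophage markers had positive differences, with a median of 0.38 and none past the threshold, and summed levels of 11.24 to 13.16 in SRI-tg10 and 10.55 to 13.37 in control islets. The part of these cells in the results below was not tested.

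ATF4 binds with C/EBP partners to composite elements in the promoters of its targets, and their core letters are shown because they mark which of the genes hold one close to the start. The core TGATGNAA was searched on both strands (TTNCATCA on the other) in the 250 bases before the RefSeq start of each gene (GRCm38.p6). Of 27 genes with a promoter sequence, 8 held it (29.6%), against 1056 of 27025 genes overall (3.91%). In the windows below, written along the gene's own strand, capitals mark the core.
Asns (chr6:7693210-7693252, reverse strand): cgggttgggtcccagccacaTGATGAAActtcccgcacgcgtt
Gars (chr6:55037951-55037998, forward strand): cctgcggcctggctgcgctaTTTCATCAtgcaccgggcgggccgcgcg
Atf3 (chr1:191183416-191183463, reverse strand): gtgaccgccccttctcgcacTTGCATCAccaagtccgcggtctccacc
Nupr1 (chr7:126625553-126625600, reverse strand): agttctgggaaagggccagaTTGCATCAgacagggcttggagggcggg
Aars (chr8:111033710-111033757, forward strand): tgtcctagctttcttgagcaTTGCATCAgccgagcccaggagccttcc
Chac1 (chr2:119351029-119351076, forward strand): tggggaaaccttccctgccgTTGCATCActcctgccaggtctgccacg
Vldlr (chr19:27216800-27216847, forward strand): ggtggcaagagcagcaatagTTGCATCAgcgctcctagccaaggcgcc
Slc7a11 (chr3:50443633-50443699, reverse strand): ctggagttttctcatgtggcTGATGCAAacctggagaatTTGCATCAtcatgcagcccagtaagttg
The core ended 16 bases before the start of Asns and 23 bases before that of Gars, and began 110 bases before those of Atf3 and Nupr1. Slc7a11 held it in both orientations. Vldlr held it before the start shown and not before its other annotated start. The longer endoplasmic reticulum stress element, ERSE, was found in 0 of 27 genes and in 0.13% of all genes. Promoter sequences for Aldh1l2, Eif4ebp1, Wars, Nars and Slc7a5 were not used here. A match describes these letters and is no evidence of binding. The set was listed as genes of the ATF4 response, so its higher share of the core is no independent result.

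Sorcin overexpression was not accompanied by a detectable change in any of these genes. Comparing SRI-tg10 with control islets, 0 of 28 measured genes passed an adjusted p of 0.05 (limma, Benjamini-Hochberg over 18315 probes), and none of their 44 probes had an unadjusted p below 0.05. Over all probes, 4 were called (0.0218%), 3 of Sri and 1 of Laptm4a, and 781 (4.26%) had an unadjusted p below 0.05. Differences (log2, SRI-tg10 minus control) were positive for 12 genes and negative for 16, with a median of -0.0073, against 0.0049 over all genes. At 1 probe per gene they ran from -0.23 for Chac1 to 0.41 for Atf5, and the smallest adjusted p was 0.9215. The 2 groups overlapped for each of the 28 genes, but the share of overlapping genes over the whole array was not counted. The 95% interval, not adjusted for the number of tests, spanned ± 0.22 for the narrowest gene and ± 1.23 for the widest, Atf3. Of the 28 intervals, 1 probe per gene, only that of Atf3 reached past 1 log2 unit. That of the second probe of Aldh1l2 ran from -1.15 to 0.0076. These intervals do not bound the change that the adjusted test could have missed.

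**Figure D1:**
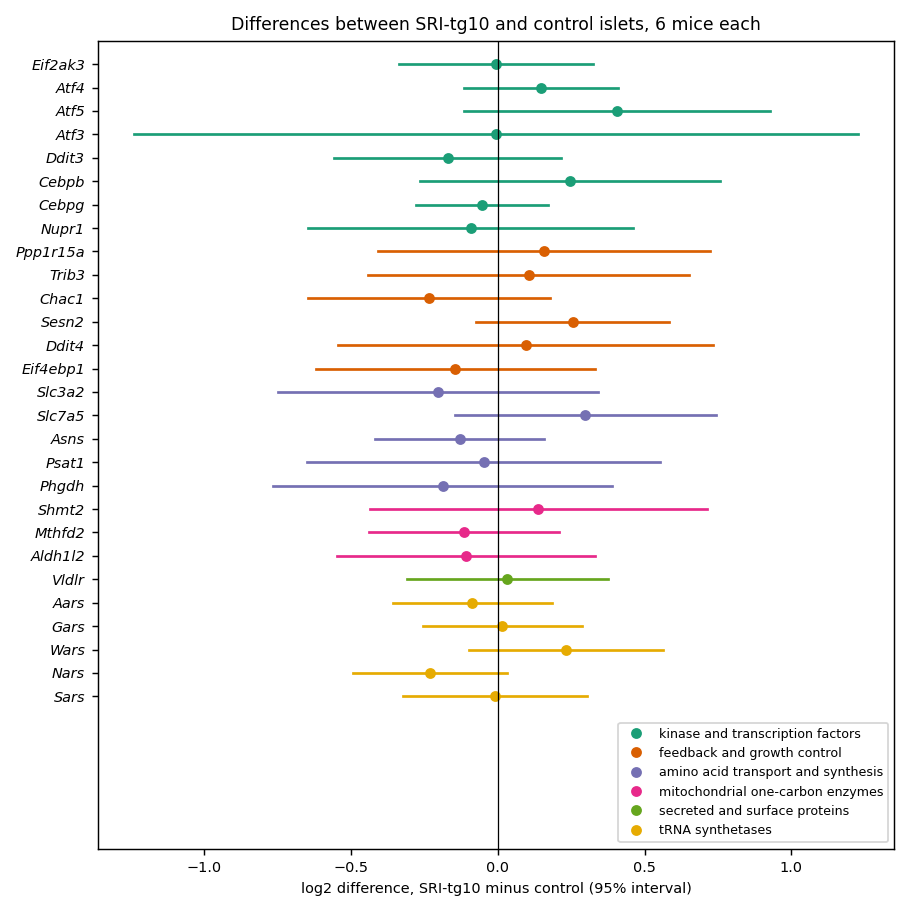
Log2 difference of each measured gene, SRI-tg10 minus control, as a point with its 95% interval (horizontal axis, log2), coloured by role, with 6 mice in each group. Every interval includes 0, and Atf3 has the widest.

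The kinase Eif2ak3 had almost the same level in both groups. Its log2 level was 8.47 at the lowest, 8.82 at the median and 9.15 at the highest in SRI-tg10 islets, against 8.43, 8.78 and 9.14 in control islets, a difference of -0.0058 ± 0.15 (SE, n = 6 each). The second probe of Eif2ak3 gave -0.07. Atf4, the transcription factor translated when eIF2α is phosphorylated, was at 12.47, 12.58 and 12.94 (lowest, median, highest) in SRI-tg10 islets and at 12.23, 12.48 and 12.70 in control islets. The difference was 0.15 ± 0.12, and 5 of 6 transgenic mice lay above the control mean. Its other probe gave -0.0097, so the direction for Atf4 depends on the probe.

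Among the other transcription factors, Ddit3 (CHOP) had lowest, median and highest levels of 8.15, 8.31 and 8.95 in SRI-tg10 islets and 8.31, 8.73 and 9.01 in control islets. Its difference was -0.17 ± 0.18 (adjusted p = 0.92308), with overlapping groups and 4 of 6 transgenic mice below the control mean; the second probe gave -0.15. Atf5, a factor also translated under stress and active in beta-cell survival, had the largest difference of the set at 1 probe per gene. It was at 10.54 to 11.86 in SRI-tg10 islets, against 10.50 to 11.66 in control islets, a difference of 0.41 ± 0.24, or 1.33-fold, at an adjusted p of 0.9215. In the authors' deposited table the same probe had a log2 fold change of 0.43 and an unadjusted p of 0.0568, the smallest there among the 44 probes. That table had the sign found here for 38 of the 44 probes. Cebpb, a C/EBP factor, had a difference of 0.25 ± 0.24. Without control replicate 5 and SRI-tg10 replicate 4, a pair left out after the data were seen, it was 0.03. The authors' deposited table gave -0.0013 for Cebpb. Cebpg, the partner of ATF4 on composite elements, was the steadiest gene of the set, at -0.05 ± 0.10. Nupr1, a small stress-induced chromatin protein, gave -0.09 ± 0.26.

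Atf3, an early stress-response factor, was not detected on every array. Its probe was detected on 4 arrays of each group. Where not detected its log2 level lay near 5 and below (4.70 and 5.00 in SRI-tg10 replicates 6 and 2, against 4.64 and 4.87 in control replicates 3 and 5), and elsewhere it lay between 6.56 and 7.43 in both groups. The difference of -0.0053 ± 0.57 therefore sits on a range of 2.79 log2 units between mice, and its spread within groups ranked at the 98.5th percentile of all genes.

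The feedback and growth-control genes include Ppp1r15a (GADD34, which returns phosphatase activity to eIF2α), Trib3 (a pseudokinase that restrains ATF4 and AKT), Chac1 (a glutathione-degrading enzyme), Sesn2 and Ddit4 (inhibitors of mTORC1) and Eif4ebp1 (a repressor of cap-dependent translation). Of these 6, 4 were higher and 2 lower in SRI-tg10 islets, with none past the test. Of the 4, Ppp1r15a (0.16) and Ddit4 (0.10) were lowest in control replicate 5 (8.449 and 8.80). They changed sign in 3 and 5 of 24 alternative computations, and the authors' deposited table had both negative (-0.12 and -0.11). Trib3 had lowest, median and highest levels of 7.06, 7.39 and 8.20 in SRI-tg10 islets and 6.74, 7.53 and 7.82 in control islets, a difference of 0.11 ± 0.25. The means and the medians of Trib3 thus pointed opposite ways. Sesn2 was above the control mean in 6 of 6 transgenic mice, with a difference of 0.26 ± 0.15 (unadjusted p = 0.117, adjusted p = 0.9215 by limma). Chac1, the lowest of the set at 1 probe per gene, gave -0.23 ± 0.19.

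Genes of amino acid transport and synthesis had a median difference of -0.13, 1 of the 5 measured being higher. Asns, asparagine synthetase and a classical ATF4 target, was at 11.89, 12.20 and 12.52 (lowest, median, highest) in SRI-tg10 islets and at 12.05, 12.30 and 12.64 in control islets. The difference was -0.13 ± 0.13, with 5 of 6 transgenic mice below the control mean; its other probes gave -0.14 and -0.24. Slc7a5, the light chain of the large neutral amino acid transporter, was the higher one, at 0.30 ± 0.21. Its heavy chain Slc3a2, detected on 11 arrays, gave -0.20 ± 0.25. Psat1 and Phgdh, enzymes of serine synthesis, gave -0.05 ± 0.28 and -0.19 ± 0.27. The cystine transporter Slc7a11 and the arginine transporter Slc7a1 were detected on at most 2 arrays, and Gdf15 and Stc2, secreted stress hormones, on 5 and 4, so none of these 4 was tested.

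The mitochondrial one-carbon enzymes Shmt2, Mthfd2 and Aldh1l2 had differences of 0.14, -0.11 and -0.11. The second probe of Aldh1l2 had the smallest unadjusted p of all 44 (0.0527), at -0.57 ± 0.27, while the brighter probe gave -0.11 ± 0.20. The lipoprotein receptor gene Vldlr gave 0.03 ± 0.16, and 1 of its other probes gave -0.29.

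The aminoacyl-tRNA synthetases, which charge tRNAs with their amino acids, split 2 higher and 3 lower. Nars was below the control mean in 6 of 6 SRI-tg10 mice, at -0.23 ± 0.12 (unadjusted p = 0.082, adjusted p = 0.9215 by limma). Its levels were 9.75 to 10.17 in SRI-tg10 islets and 10.10 to 10.59 in control islets. The brightest Wars probe gave 0.23 ± 0.15 while its other 3 probes gave -0.13, -0.13 and -0.24, so no direction is given for Wars. Aars, Gars and Sars had differences of -0.09, 0.02 and -0.0087.

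**Figure D2:**
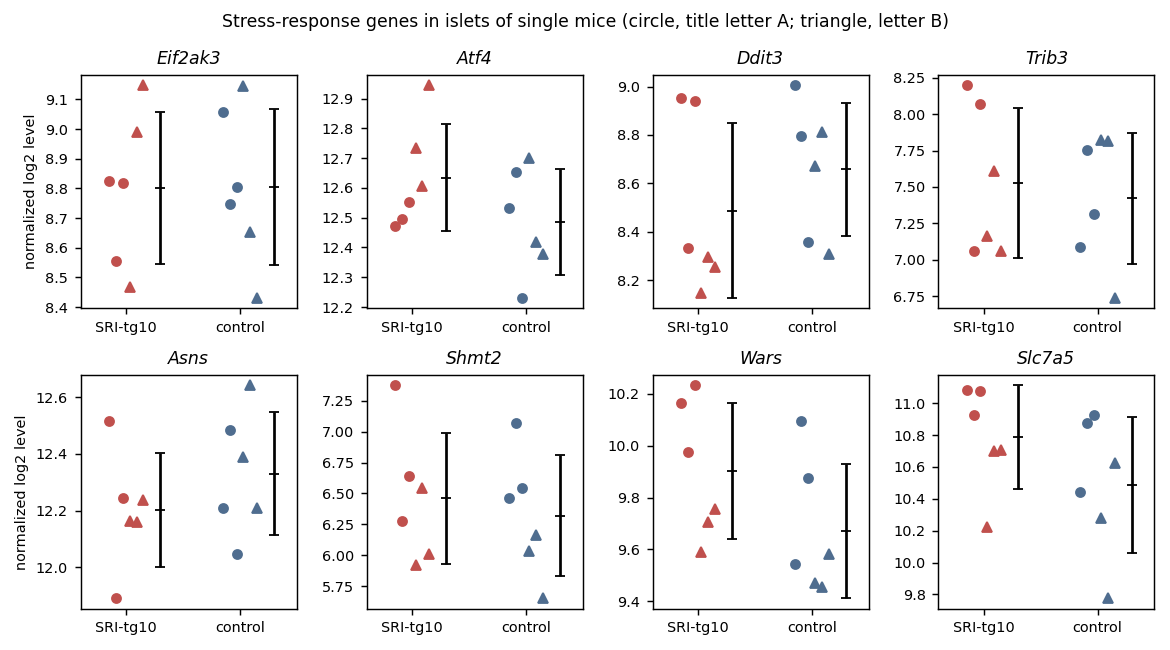
Normalized log2 level of 8 stress-response genes in single mice (vertical axis), SRI-tg10 left and control right; circles are title letter A, triangles letter B, and the bars show mean ± SD. The groups overlap for each gene, and the letter B points of Wars, Slc7a5 and Shmt2 lie mostly low.

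Genes of the same pathway outside the set were tested in the same fit. Of 17 genes for eIF2 kinases, eIF2, eIF2B and phosphatase partners, 15 were measured, with 5 higher, 10 lower, a median of -0.12 and 0 past the adjusted threshold. Dnajc3 (p58IPK, a chaperone that also inhibits PERK) gave -0.43 ± 0.15 and Eif2s2 (the eIF2 beta subunit) -0.35 ± 0.16, both at an adjusted p of 0.9215 and unadjusted p values of 0.0143 and 0.0495. Of 27 other ATF4 and CHOP targets, 21 were measured, with 10 higher, 11 lower, a median of -0.04 and 0 called; Pycr1, an enzyme of proline synthesis, gave -0.44 ± 0.24. The 5 measured synthetases linked to ATF4 besides the set were all negative (median -0.18), as were 6 of 7 synthetases not usually counted among its targets (median -0.13), and none passed. The lists were chosen with earlier results of these data known.

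Single mice of the same group stood high or low for many of these genes. Within groups the median standard deviation of the 28 genes was 0.36, against 0.31 over all genes. SRI-tg10 replicates 1 and 3 were above the 12-mouse mean for 26 and 22 of the 28 genes, and control replicate 2 for 24. SRI-tg10 replicate 2 was above it for 5, and SRI-tg10 replicates 4 and 6 for 9 each. Over all genes these 6 arrays were above the mean for 41.1% to 56.2%. Among the acinar markers, the transcription factors Ptf1a and Rbpjl, which lay well below the ceiling and were picked out after their values were seen, varied with several of these arrays. Ptf1a was at 9.99 and 9.41 in SRI-tg10 replicates 1 and 3 and at 9.61 in control replicate 2, against 8.19 in SRI-tg10 replicate 2 and 6.89 in control replicate 1, where 10 genes of the set were above the mean. Rbpjl was at 11.24 and 10.16 in SRI-tg10 replicates 1 and 3 and at 10.77 in control replicate 2, against 9.81 in SRI-tg10 replicate 2 and 8.44 in control replicate 1. The array highest for Ptf1a, control replicate 5 (10.05), was above the mean for 14 of the 28 genes. SRI-tg10 replicates 4 and 6, low for the set, had Ptf1a at 8.86 and 8.46 and Rbpjl at 10.09 and 9.455. Rbpjl in SRI-tg10 replicate 4 was thus near its level in SRI-tg10 replicate 3, which was high for the set. The part of acinar RNA in these levels was not tested.

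**Figure D3:**
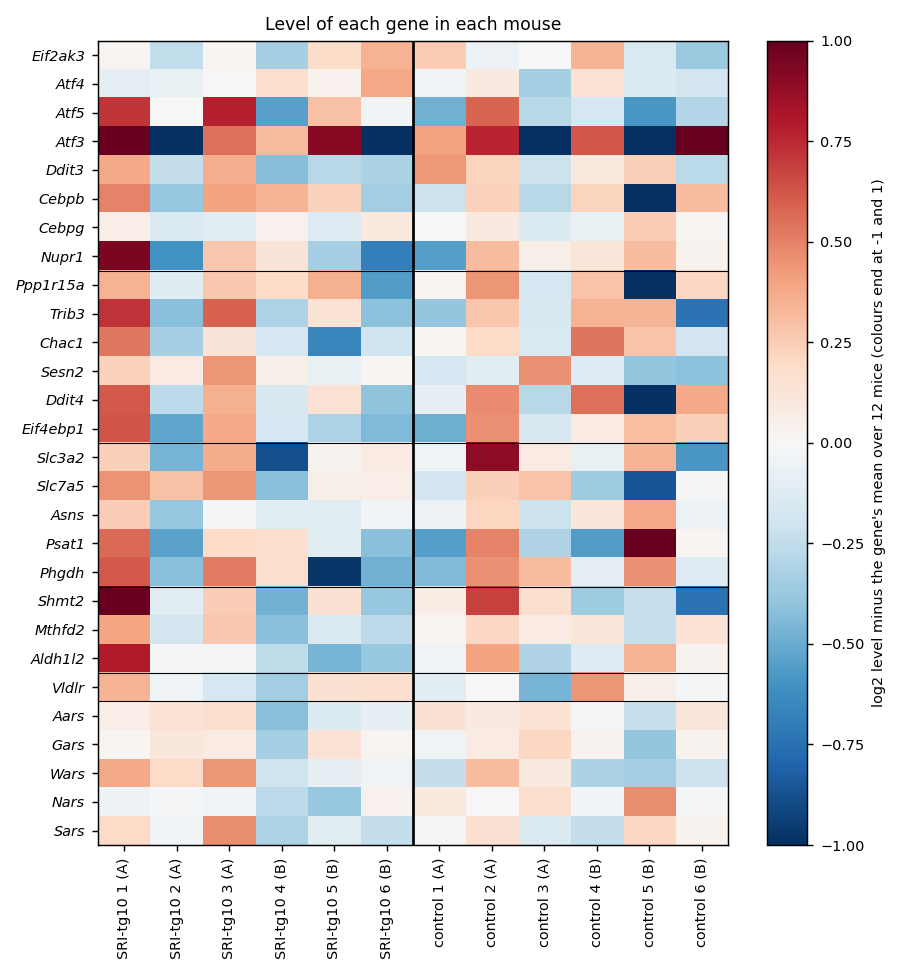
Level of each measured gene in each mouse minus that gene's mean over the 12 mice (colour, log2; the scale ends at -1 and 1), with genes in rows by role and SRI-tg10 mice left of the controls. SRI-tg10 replicate 1 and control replicate 2 are red for most genes, 26 and 24 of 28.

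Pairs of genes from the set were compared over mice. Asns and Psat1 had a Pearson r of 0.734 (permutation test, adjusted p = 0.0252) and a Spearman rho of 0.557 (adjusted p = 0.0847) over 12 mice. Asns and Trib3 had an r of 0.639 (permutation test, adjusted p = 0.0353) and a rho of 0.662 (adjusted p = 0.0847). Ddit3 and Trib3 had an r of 0.651 (permutation test, adjusted p = 0.0353) and a rho of 0.559 (adjusted p = 0.0847). P values were two-sided and adjusted over 4 pairs, and only the Pearson values passed. With levels centred on the group means, r was 0.76, 0.72 and 0.718 for these pairs and rho 0.62, 0.764 and 0.762, all passing (permutation tests, adjusted p for rho 0.047, 0.0112 and 0.0112). Psat1 stood high in the mice in which Ptf1a did: the 3 highest mice for both were control replicate 5 (Psat1 9.50), SRI-tg10 replicate 1 (9.02) and control replicate 2 (8.95). The same 3 mice were the highest for Asns, at 12.64, 12.52 and 12.48. In control replicate 1, the lowest mouse for Ptf1a, Psat1 was 7.90 and Asns 12.21. The part of acinar RNA in the correlations was not tested. Without the 2 mice farthest from the median, r was 0.506 for Asns and Psat1 and 0.618 for Asns and Trib3, neither passing, and 0.84 for Ddit3 and Trib3. Within letters A and B, r was 0.876 and 0.607 for Asns and Psat1, 0.768 and 0.63 for Asns and Trib3, and 0.553 and 0.742 for Ddit3 and Trib3 (exact permutation tests, n = 6 each, adjusted p from 0.0792 to 0.256). Under median scaling of the arrays none of the 3 Pearson values passed, with r of 0.37, 0.534 and 0.615, while rho of Ddit3 and Trib3 did (0.748, permutation test, adjusted p = 0.0259). Since Atf3 fell into a cluster of 4 arrays without detection and one of 8 with it, its relation to Ppp1r15a was computed over the 8 only, giving r = 0.46 (exact permutation test, p = 0.253) and rho = 0.524. Over all 12 arrays, as first designed, r was 0.798 and rho 0.832, resting on those 2 clusters.

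**Figure D4:**
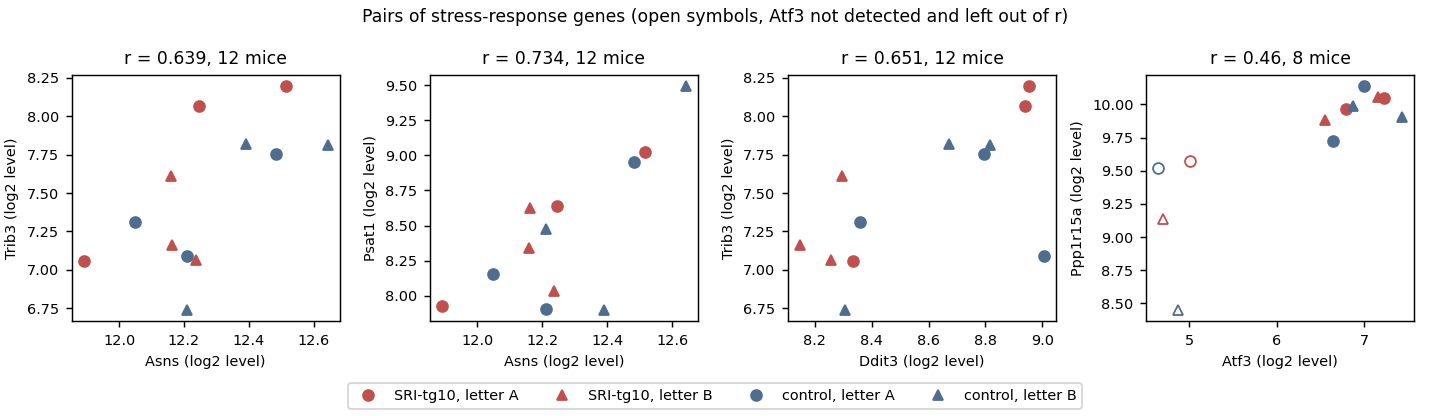
Log2 levels of 4 gene pairs, 1 point per mouse (red SRI-tg10, blue control; circles letter A, triangles letter B; open symbols, Atf3 not detected). The pairs of Asns with Trib3, Asns with Psat1 and Ddit3 with Trib3 have Pearson r of 0.639, 0.734 and 0.651 over 12 mice, and Atf3 with Ppp1r15a has 0.46 over the 8 mice where Atf3 was detected.

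The title letter was examined because it splits both groups. Comparing letter B with letter A, adjusted for group, 21 of 28 stress-response genes were lower in B, with a median of -0.22 against -0.02 over all genes. Median scaling moved the median of all genes to -0.15 and left 27 of 28 genes lower, with a median of -0.38; the 2 other background corrections left 21 lower. No gene of the set passed the adjusted threshold (0 of 28), while 17 of 18315 probes did (0.0928%). At an unadjusted p below 0.05 stood 9 of the 44 probes, against 16.8% of all probes. They were 4 of Wars, 1 each of Shmt2, Slc7a5, Aars and Sesn2, and the second probe of Mthfd2 (-0.27 ± 0.12). At 1 probe per gene, 5 of the 28 genes stood there, a share near that of all probes. The count thus does not set these genes apart from the rest of the array.

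Wars was the gene with the smallest p. Its log2 level was 9.45, 9.59 and 9.76 (lowest, median, highest) in letter B mice and 9.55, 10.04 and 10.23 in letter A mice, a difference of -0.39 ± 0.11 (limma, adjusted p = 0.154). All 4 Wars probes were lower in B, by -0.38 to -0.53. Shmt2, mitochondrial serine hydroxymethyltransferase, was at 5.65, 6.02 and 6.54 in B and at 6.28, 6.59 and 7.38 in A, a difference of -0.68 ± 0.20 (adjusted p = 0.162).

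Slc7a5 was at 9.78, 10.45 and 10.70 in letter B mice and at 10.44, 10.93 and 11.09 in letter A mice, a difference of -0.51 ± 0.16 (limma, adjusted p = 0.173). Aars was at 10.46, 10.77 and 11.00 in B and at 10.95, 11.02 and 11.05 in A, a difference of -0.25 ± 0.10 (adjusted p = 0.256). Sesn2 gave -0.31 ± 0.13. In each case the ranges of the letters overlapped. Of the pathway genes outside the set, Aldh18a1, the first enzyme of proline synthesis, came nearest the threshold, at -0.56 ± 0.10 (adjusted p = 0.0609). The 6 measured lymphocyte markers were all higher in B, by a median of 0.88, with summed levels of 10.04 to 15.25 in B and 10.16 to 13.70 in A. None of the 6 passed, with unadjusted p from 0.142 to 0.490 (limma). Of the 7 beta-cell markers 5 were lower and 2 higher, none passing, where 47.8% of all genes were higher in B. The insulin genes went opposite ways, Ins1 by -0.41 and Ins2 by 0.21. The part of these cells in the letter differences was not tested.

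The group difference was also read within each letter, with 3 mice against 3. Within letter A, 22 of 28 genes were higher in SRI-tg10 islets, with a median of 0.16, against 48.4% higher over all genes. Within letter B, 10 were higher and 18 lower, with a median of -0.18, against 50.9% higher over all genes. Of the SRI-tg10 mice of letter A, replicates 1 and 3 were above the 12-mouse mean for 26 and 22 genes, but replicate 2 for 5. The genes moved together in single mice, so these counts are not separate observations. As many as 14 genes, Trib3 (0.39 and -0.18) and Chac1 (0.09 and -0.55) among them, were higher within A and lower within B, 2 were the reverse, and 12 kept 1 direction. Atf5, Slc7a5 and Sesn2 were higher within both, Atf5 by 0.56 and 0.26. The test of this difference, the interaction of group and letter, called 0 of 18315 probes, with 427 at an unadjusted p below 0.05 and none of the 28 genes among them. The interaction was below 0 for 20 of 28 genes (71.4%), with a median of -0.21, against 48.1% and 0.02 over all genes.

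**Figure D5:**
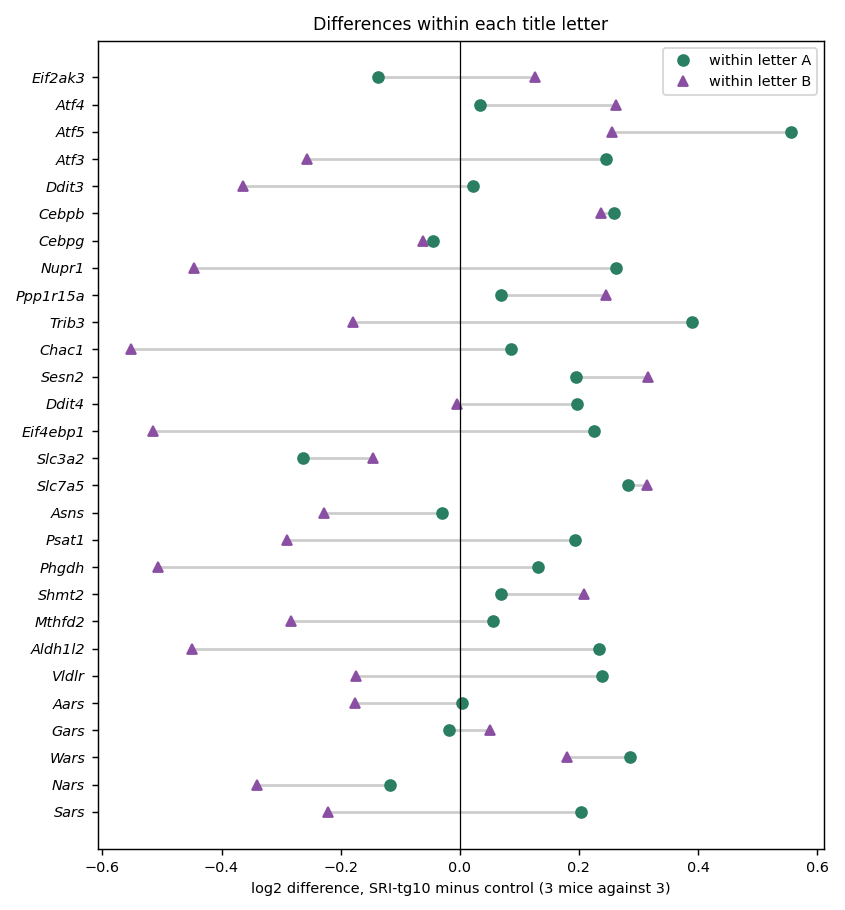
Log2 difference, SRI-tg10 minus control, of each measured gene within letter A (circles) and letter B (triangles), 3 mice against 3 in each. Circles lie right of 0 for 22 genes and triangles for 10.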

How the data were processed

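The deposited intensity of each probe is the mean bead brightness on a linear scale, with a detection p-value for each, per the file headers; GenomeStudio is named in the submitters' processing notes. From the values, the intensities were neither background-subtracted nor normalized. The authors' deposited table of log2 fold changes with p-values gives no model; its direction was found by setting it against the intensities. The deposited log2 value table of the series was not used for levels: 10 of its 12 columns have the rank order of an array with another title.

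Intensities were background-corrected, quantile-normalized and put on the log2 scale with neqc (limma 3.58.1, R 4.3.3), which took the negative control level out of the detection p-values and added an offset of 16. Only probes detected (p below 0.05) on 6 or more of 12 arrays were kept. A gene stands by its kept probe with the highest mean, and levels of different probes were not compared. Differences were fitted with lmFit and eBayes over all 18315 kept probes, for group, for title letter adjusted for group, and for their interaction, with Benjamini-Hochberg adjustment and a threshold of 0.05. Errors are SE of the fit, n = 6 mice in each group. The number of arrays limits the precision.

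Correlations used permutation tests with 1e+05 resamples, exact up to n = 8, over arrays on which both probes were detected. That restriction departs from the design, which had all 12 arrays, and was added after the data were seen; it removes arrays from the Atf3 pair only, and moves the adjusted p of the others. All measured genes could be named; Eif2ak3, Atf4, Ddit3, Trib3, Asns and the 4 with the smallest p for the letter are given in full, and of other lists those with the smallest p. The genes and lists were chosen with earlier results of these data known. Alternatives covered background correction, scaling, the detection filter, array weights, the letter as a block, each letter alone and each array left out.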

Additional observations from a re-analysis of the deposited data

Results flagged for a closer look

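In 6 of 56 sets of 6 values (28 genes in 2 groups), 1 mouse stood apart from the rest by Dixon's test (10.7%), against 8.34% of the sets over all genes; nominally chance flags about 1 set in 20, and these genes are not independent of each other. Gars was low in SRI-tg10 replicate 4, at a log2 level of 12.9, and Aldh1l2 was high in SRI-tg10 replicate 1, at 10.39. Among controls, Atf5 was high in replicate 2 (11.66), Ppp1r15a low in replicate 5 (8.449), Sesn2 high in replicate 3 (7.739) and Nupr1 low in replicate 1 (12.38). SRI-tg10 replicate 4 is also the array with the lowest Sri level of its group, and control replicate 5 the one least correlated with the others. Leaving both out kept the number of called genes of the set at 0.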

How the results depend on the processing

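No gene of the set passed the threshold for SRI-tg10 against control under any of the 23 alternatives run, nor for letter B against A under 19. The median difference between groups ranged from -0.18 (within letter B) to 0.16 (within letter A), and that between letters from -0.38 to -0.11. Single values for the groups changed sign in 63 of 670 recomputations. With the median over probes Wars gave -0.13. Of all probes, 0 were called for the groups within letter B, where 3 mice stood against 3. For the letters, the 17 calls became 9 with detection on all 12 arrays and 38 with array weights, and 4 to 19 with 1 array left out, namely 4 without SRI-tg10 replicate 4, 5 without SRI-tg10 replicate 2 or 5 or control replicate 2 or 3, 8 without SRI-tg10 replicate 1, 9 without replicate 6 and 10 without replicate 3. Under median scaling the calls were 0 higher and 19 lower in B, against 3 and 14; the cause was not tested.

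Calls of the correlations also varied. Under median scaling r was 0.37 for Asns and Psat1, 0.534 for Asns and Trib3 and 0.615 for Ddit3 and Trib3, without passing, while rho of Ddit3 and Trib3 passed (0.748, adjusted p = 0.0259). Centred on the group means, r and rho passed for these 3 pairs. All 3 rho also passed without control replicate 1 (adjusted p 0.0184 to 0.0496), and that of Asns and Psat1 without control replicate 4 (0.0409). Within letters A and B none passed: 0.876 and 0.607, 0.768 and 0.63, and 0.553 and 0.742 for the same pairs, where fewer mice were used. Without the 2 farthest mice, Asns and Psat1 (0.506) and Asns and Trib3 (0.618) did not pass. Leaving out 1 array gave 0.589 to 0.865, 0.564 to 0.712 and 0.578 to 0.876. Omitting SRI-tg10 replicate 1 (0.695, 0.564, 0.578), SRI-tg10 replicate 2 (0.705, 0.606, 0.627), control replicate 2 (0.705, 0.622, 0.636) or control replicate 5 (0.589, 0.634, 0.631) ended the call of all 3 pairs. Asns and Trib3 also lost it without control replicate 4 (0.623), SRI-tg10 replicate 4 (0.628) or SRI-tg10 replicate 6 (0.653), and Ddit3 and Trib3 without those (0.649, 0.634, 0.618) or SRI-tg10 replicate 3 (0.592). Atf3 and Ppp1r15a ranged from 0.237 to 0.765 and passed only without control replicate 6. Over all 12 arrays, as first designed and with Atf3 undetected on 4, its r was 0.798 (permutation test, adjusted p = 0.00284). Its rho was 0.832 (permutation test, adjusted p = 0.0054), and both rest on 2 separate clusters. For r of the other pairs the adjusted p values were 0.0126 to 0.0265. The rho of Asns and Trib3 then passed too (permutation test, adjusted p = 0.0438). Letters could not be computed for Atf3 and Ppp1r15a, with too few detected arrays.

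The deposited value table was planned as an alternative and not run, because its columns do not match their titles. No paired analysis was possible because the labels give each mouse a number of its own, and the replicate numbers used here, which follow accession order, pair no mice.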
